A study of Mus musculus with 2 samples.

Results

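Hepatic expression of 10 acute-phase genes was compared between Lpcat3fl/fl mice without Cre, designated Flox/Flox, and Lpcat3fl/fl Albumin-Cre mice, designated L-Lpcat3 KO. The genes were the 4 serum amyloid A genes Saa1, Saa2, Saa3 and Saa4, the 3 orosomucoid genes Orm1, Orm2 and Orm3, and Lcn2, Hp and Hpx, which encode lipocalin-2, haptoglobin and hemopexin. They were chosen by gene family and by their ratios on these same arrays, so all ratios of the 10 genes are given as a description, with no test. All probe sets annotated to them were taken, 12 of the 45101 on the array and 10 of 18193 named genes. No probe set listed more than 1 of these genes or any further gene. Saa1 and Saa4 had 2 probe sets each, and the other 8 genes had 1.

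Livers came from male mice, 12 weeks old, on chow and without food for 6 hr when livers were taken. Both groups carry homozygous floxed Lpcat3, with loxP sites on either side of exon 3. In L-Lpcat3 KO, Cre under the albumin promoter deletes this exon in hepatocytes, while Kupffer cells and endothelial cells keep the gene. RNA of 5 livers was pooled per genotype and hybridized to 1 Affymetrix Mouse Genome array per pool, so there are no replicates, and every ratio is a single value without a measure of variation among mice.

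Acute-phase proteins are plasma proteins whose output by hepatocytes changes in inflammation. IL-6 and related cytokines signal through STAT3, and IL-1 and TNF through NF-kappaB and C/EBP factors, to raise transcription of the positive acute-phase genes. Some members of this group, such as Saa1 and Saa2, can rise from low to very high levels, while others, such as Hp and Hpx, are abundant in healthy liver and rise moderately. Lcn2 and Saa3 are also made outside hepatocytes, Lcn2 in neutrophils and epithelia and Saa3 in macrophages and fat.

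Of the 10 genes, 8 had a lower signal in L-Lpcat3 KO and 2, Hp and Hpx, a slightly higher one. Of all measured genes, 49.3% had a log2 ratio below 0, that is, were lower in L-Lpcat3 KO. Of the 194 with a geometric mean signal above 20000, which include Saa1, Saa4, Orm1, Hp and Hpx, 71.6% were below 0. Among the 10, Lcn2 had the lowest ratio, followed by Saa3, Orm2, Saa2 and Orm3, all at least 2-fold lower. Saa1 came next at 1.68-fold lower. Saa4 and Orm1 were lower by less than 1.5-fold. The acute-phase genes thus differed by very unequal amounts within each family.

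**Figure D1:**
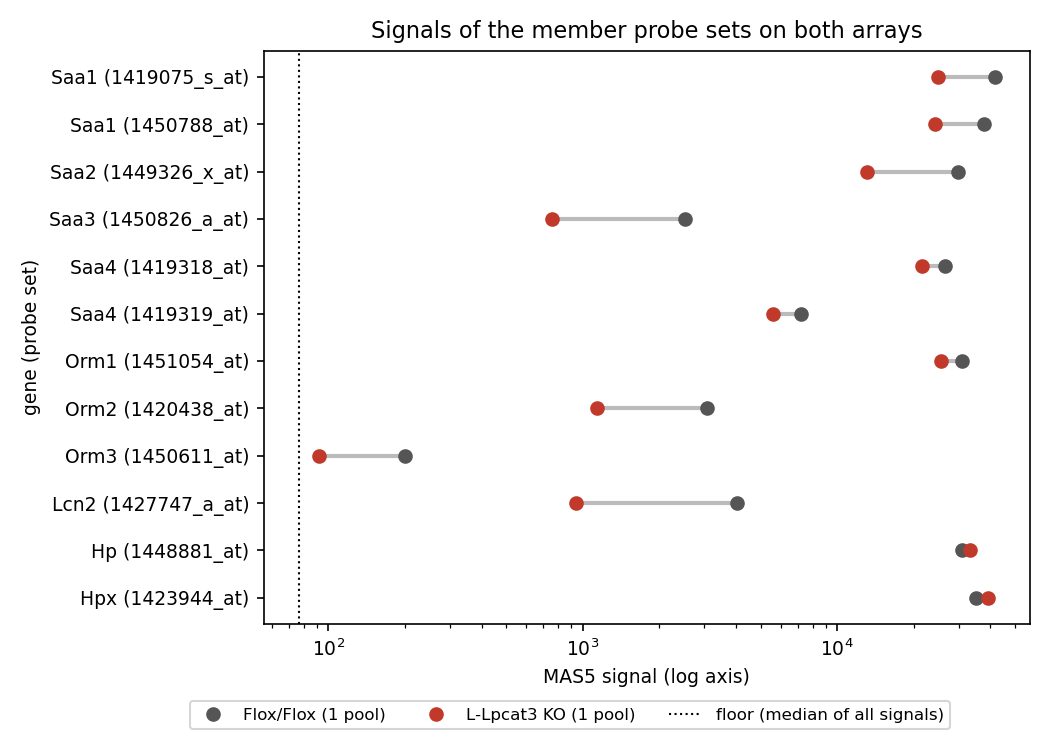
MAS5 signal (x axis, log scale) of each of the 12 probe sets (y axis, gene with probe set) in the Flox/Flox pool (grey) and the L-Lpcat3 KO pool (red), 1 point per array, with a dotted line at the floor of 76.4. The red point lies left of the grey point for 10 probe sets and right of it for Hp and Hpx.

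The genes of each family lie together in the genome. On chromosome 7 of the mouse RefSeq annotation (GRCm38.p6) the order is Saa3, Saa4, Saa1 and Saa2, with a pseudogene, Saa-ps, between Saa4 and Saa1 and no gene between Saa1 and Saa2. On chromosome 4 the order is Orm1, Orm3 and Orm2, with no gene between the last of these. Hpx lies elsewhere on chromosome 7, Lcn2 on chromosome 2 and Hp on chromosome 8. RefSeq promoter sequences, 250 bases before to 50 bases after a transcript start, were found for 8 of the 10 genes. Of these, 6 are shown because the signals of their genes were at least 1.5-fold lower. The likeness of promoters does not show which paralog a probe set reads. Each is written 5′ to 3′ on the strand of its gene, and capitals mark matches to the motifs described after them.

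Saa1, chr7:46742931-46743230, minus strand: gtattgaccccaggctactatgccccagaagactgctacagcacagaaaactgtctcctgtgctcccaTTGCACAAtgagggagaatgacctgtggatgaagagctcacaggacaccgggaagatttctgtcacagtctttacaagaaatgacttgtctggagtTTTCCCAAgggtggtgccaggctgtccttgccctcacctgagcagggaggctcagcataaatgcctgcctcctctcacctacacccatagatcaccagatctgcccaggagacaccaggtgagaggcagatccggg
Saa2, chr7:46751583-46751882, plus strand: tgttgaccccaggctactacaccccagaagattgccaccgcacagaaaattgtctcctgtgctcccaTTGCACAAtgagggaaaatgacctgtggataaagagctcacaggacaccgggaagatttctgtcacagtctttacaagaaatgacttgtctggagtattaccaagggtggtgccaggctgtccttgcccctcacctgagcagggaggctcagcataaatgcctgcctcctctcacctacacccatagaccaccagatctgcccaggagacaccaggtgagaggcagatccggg
Saa3, chr7:46715627-46715926, minus strand: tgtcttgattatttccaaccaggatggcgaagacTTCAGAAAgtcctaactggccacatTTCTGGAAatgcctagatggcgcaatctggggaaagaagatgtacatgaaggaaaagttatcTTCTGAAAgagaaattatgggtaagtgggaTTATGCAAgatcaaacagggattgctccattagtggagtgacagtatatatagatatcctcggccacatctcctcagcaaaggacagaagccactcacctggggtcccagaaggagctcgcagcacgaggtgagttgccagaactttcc
Orm2, chr4:63362199-63362498, plus strand: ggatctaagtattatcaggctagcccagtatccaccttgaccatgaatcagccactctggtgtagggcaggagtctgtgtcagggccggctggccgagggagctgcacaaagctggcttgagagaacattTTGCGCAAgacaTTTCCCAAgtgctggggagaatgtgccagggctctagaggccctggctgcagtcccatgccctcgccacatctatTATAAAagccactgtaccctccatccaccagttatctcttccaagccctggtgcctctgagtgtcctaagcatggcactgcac
Orm3, chr4:63355908-63356207, plus strand: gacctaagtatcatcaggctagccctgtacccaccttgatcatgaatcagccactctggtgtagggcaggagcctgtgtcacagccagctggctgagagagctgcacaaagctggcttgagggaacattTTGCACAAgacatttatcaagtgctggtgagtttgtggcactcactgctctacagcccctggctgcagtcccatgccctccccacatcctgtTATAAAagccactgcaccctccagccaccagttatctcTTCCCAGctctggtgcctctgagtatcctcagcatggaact
Lcn2, chr2:32387690-32387989, minus strand: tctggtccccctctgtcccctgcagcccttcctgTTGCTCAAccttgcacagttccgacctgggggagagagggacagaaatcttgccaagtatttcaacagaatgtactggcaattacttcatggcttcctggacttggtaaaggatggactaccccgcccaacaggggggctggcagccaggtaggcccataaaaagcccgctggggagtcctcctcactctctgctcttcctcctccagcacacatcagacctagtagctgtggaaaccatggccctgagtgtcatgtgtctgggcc

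Saa1 and Saa2 are transcribed away from each other, and their promoters were 95.3% identical over 301 aligned positions, with 12 mismatches. Orm2 and Orm3 were 86.2% identical over 305 positions. All other pairs among the 8 promoters were at most 51.4% identical, a value reached by Saa1 and Lcn2, so Saa3 and Saa4 do not share the promoter of Saa1 and Saa2.

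Motifs of the factors named above were searched on both strands. The C/EBP motif TTNNGNAA matched in all 8 promoters, against 40.7% of the 32841 promoters of 300 bases in the same table. Saa3 held 4 matches, Saa1, Saa4, Orm2 and Hpx 2 each, and Saa2, Orm3 and Lcn2 1 each. Hpx, which was not lower in L-Lpcat3 KO, thus held as many as Orm2. The match of Saa1 from -182 to -175, counted from the transcript start, has the same letters as the one in Saa2. The second match of Saa1, from -86 to -79, has no counterpart in Saa2, where T165A and C168A (Saa1 base first, positions counted from 1 at the 5′ end of the printed Saa1 window) fall within it.

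The TATA box TATAAA matched in Orm2 and Orm3 (13.6% of all promoters). The IL-6 response element CTGGGAA matched in Orm3, just after the start (11.1% of all). The STAT3 motif TTCNNNGAA (8.30% of all) and the NF-kappaB consensus (8.46% of all) matched in none of the 8 windows. Matches describe these letters only. They do not show that a factor binds, and a window without one says nothing about the factor, since sites may lie elsewhere or differ from the motif.

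**Figure D2:**
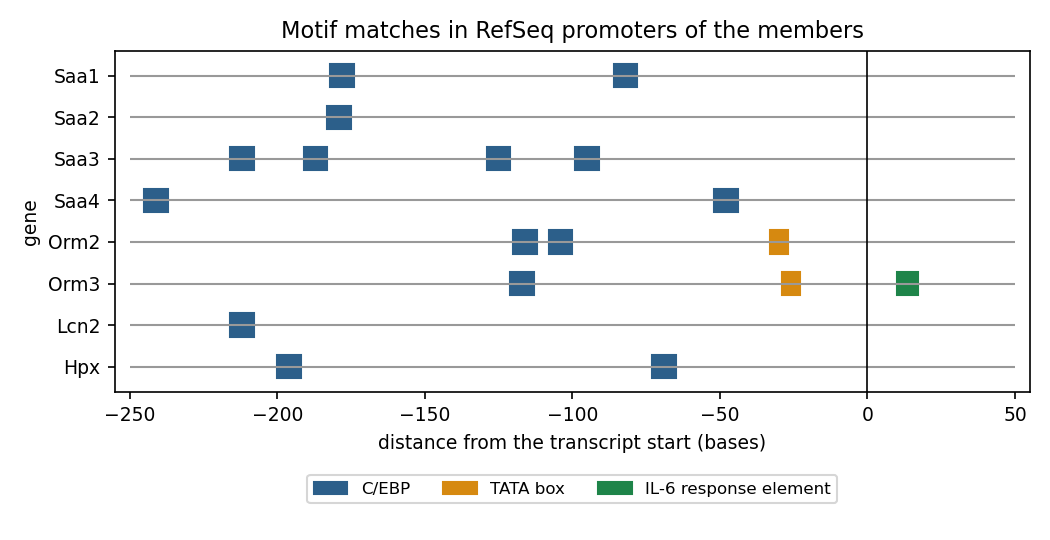
Motif matches (coloured boxes) in the promoters of 8 genes (y axis) by distance from the transcript start in bases (x axis). C/EBP matches (blue) occur in all 8 promoters, TATA boxes (orange) in Orm2 and Orm3, and the IL-6 response element (green) in Orm3.

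Ratios are given as log2 of the L-Lpcat3 KO signal minus log2 of the Flox/Flox signal. Signals are MAS5 values, which summarise all probes of a probe set after background correction and are linear. Where a pair of signals stands without group names, Flox/Flox comes first. Signals of different probe sets do not measure RNA amounts on a common scale, so ratios compare the 2 arrays for each. Bands of signal, brightest genes and summed signals are given as descriptions, and the brightest probe sets weigh most in a sum. The floor of 76.4 is the median of all signals, and genes above it on at least 1 array count as measured. All 10 genes were above it on both arrays, and 12061 genes were measured in all. The ratio of 3′ to 5′ control probe sets, a sign of RNA integrity, was 0.866 and 0.851 for Gapdh and 2.34 and 2.32 for beta-actin, Flox/Flox first.

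The serum amyloid A proteins are apolipoproteins that join high-density lipoprotein in the acute phase. Saa1, 1 of the 2 major inducible forms, had a signal of 41712 in the Flox/Flox pool and 24899 in the L-Lpcat3 KO pool by its brighter probe set (log2 ratio -0.74). Its other probe set gave 37921 and 24264 (-0.64). Both probe sets were lower by a similar amount, at signals close to the top of the range of these arrays, which ended at 60906 in the Flox/Flox pool and 55070 in the L-Lpcat3 KO pool.

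Saa2, the second major inducible form, had a signal of 29910 in the Flox/Flox pool and 13055 in the L-Lpcat3 KO pool (log2 ratio -1.20, 2.29-fold lower). Among the 194 measured genes with a geometric mean signal above 20000, Saa1 was the 1 gene lower by 1.5-fold or more, and among the 901 genes between 5000 and 20000, Saa2 was the 1 such gene. These bands of signal were chosen after the values were seen.

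Saa1 and Saa2 could not be cleanly told apart. The brighter Saa1 probe set, whose identifier ends in _s_at, and the Saa2 probe set, which ends in _x_at, were annotated to the same transcript accession, which RefSeq now assigns to Saa2. RefSeq lists each symbol as an older name of the other gene. The ending _s_at marks probes shared by several transcripts, and _x_at marks probes that may match other sequences as well. The second Saa1 probe set has neither ending, and its accession is that of Saa1. If probe sets were named by accession, Saa1 would have a log2 ratio of -0.64, and the brighter of the 2 probe sets of Saa2 one of -0.74, so that Saa2 would be represented by a value under 2-fold. All 3 probe sets were lower by at least 1.5-fold, whichever gene each of them reads.

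Saa3, made in liver and in macrophages in mice, had a signal of 2528 in the Flox/Flox pool and 760 in the L-Lpcat3 KO pool (log2 ratio -1.73, 3.33-fold lower). It had the lowest ratio of its family and stood at rank 6 among all 12061 measured genes, counted from the lowest ratio. Saa4 encodes the constitutive serum amyloid A, present in high-density lipoprotein without inflammation. Its signal was 26486 in the Flox/Flox pool and 21557 in the L-Lpcat3 KO pool (-0.30), and 7178 and 5601 by its other probe set (-0.36). The constitutive form was thus lower by 1.23-fold and 1.28-fold, less than each inducible form of the family on these arrays.

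Orosomucoids, or alpha-1-acid glycoproteins, are plasma glycoproteins that bind lipophilic compounds. Orm2 had a signal of 3081 in the Flox/Flox pool and 1132 in the L-Lpcat3 KO pool (log2 ratio -1.44, 2.72-fold lower). Orm3 had 201 and 91.6 (-1.13, 2.19-fold lower). Orm1, by contrast, had 30851 in the Flox/Flox pool and 25595 in the L-Lpcat3 KO pool (-0.27, 1.21-fold lower). By these probe sets, 1 per gene, Orm2 thus differed most within the family and Orm1 least. Whether a probe set also reads RNA of another orosomucoid gene was not tested. Orm3 was close to the floor in L-Lpcat3 KO. Among the 4274 measured genes with a geometric mean signal from the floor to 386, log2 ratios had an SD of 0.42. Of these genes, 6.67% were at least 1.5-fold lower, and 46 genes were at least 2-fold lower. Between 1000 and 5000, where Orm2 lies, 7 of 3172 genes were at least 2-fold lower. A difference as large as that of Orm3 was thus uncommon in its own band, though less so than in that of Orm2. The SD was 0.20 across 3172 genes between 1000 and 5000 and 0.11 across the 194 genes above 20000.

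Lcn2 encodes lipocalin-2, which withholds iron from bacteria by binding their iron-loaded siderophores. Its signal was 4028 in the Flox/Flox pool and 938 in the L-Lpcat3 KO pool (log2 ratio -2.10, 4.29-fold lower), or 23.3% of the Flox/Flox value. It ranked 2 of 12061 from the lowest ratio. Haptoglobin binds free haemoglobin and hemopexin binds free haem, so both, like lipocalin-2, limit iron loss and iron supply to microbes. Hp had a signal of 30917 in the Flox/Flox pool and 33261 in the L-Lpcat3 KO pool (0.11), and Hpx had 35080 and 39034 (0.15). Both lay on the side opposite to Lcn2, at 1.08-fold and 1.11-fold higher. The 5th and 95th percentiles of log2 ratios among the 194 genes above a signal of 20000 were -0.22 and 0.10, so Hp and Hpx lay a little above this range and Orm1 and Saa4 a little below it. Without replicates, no ratio given here, small or large, can be told from the variation between pools.

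Counted over genes, 6 of the 10 were lower by 1.5-fold or more, against 3.14% of all measured genes, and 5 were at least 2-fold lower, against 0.514%. None of the 10 was 1.5-fold higher. The median log2 ratio was -0.94, against 0.00 over all measured genes. Since ratios grow more variable as signals fall, the shares were also taken over the 4267 genes with a geometric mean signal above 1000, which include 9 of the 10. Of these 4267 genes, 0.586% were at least 1.5-fold lower and 0.187% at least 2-fold lower. Saa1, Saa2, Saa3, Orm2 and Lcn2 made up 5 of the 25 genes behind the first share, and the last 4 of them made up 4 of the 8 behind the second. As the same ratios entered the choice of the genes, nothing about them follows from these shares. The other 4 of the 8 were the chemokine gene Cxcl9, Lpcat3 itself, Moxd1 and the interferon-inducible Ifi47. Lpcat3 had a signal of 3310 in the Flox/Flox pool and 1305 in the L-Lpcat3 KO pool. Where its probe set lies relative to exon 3 was not determined here, so this is a weak check of the deletion.

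**Figure D3:**
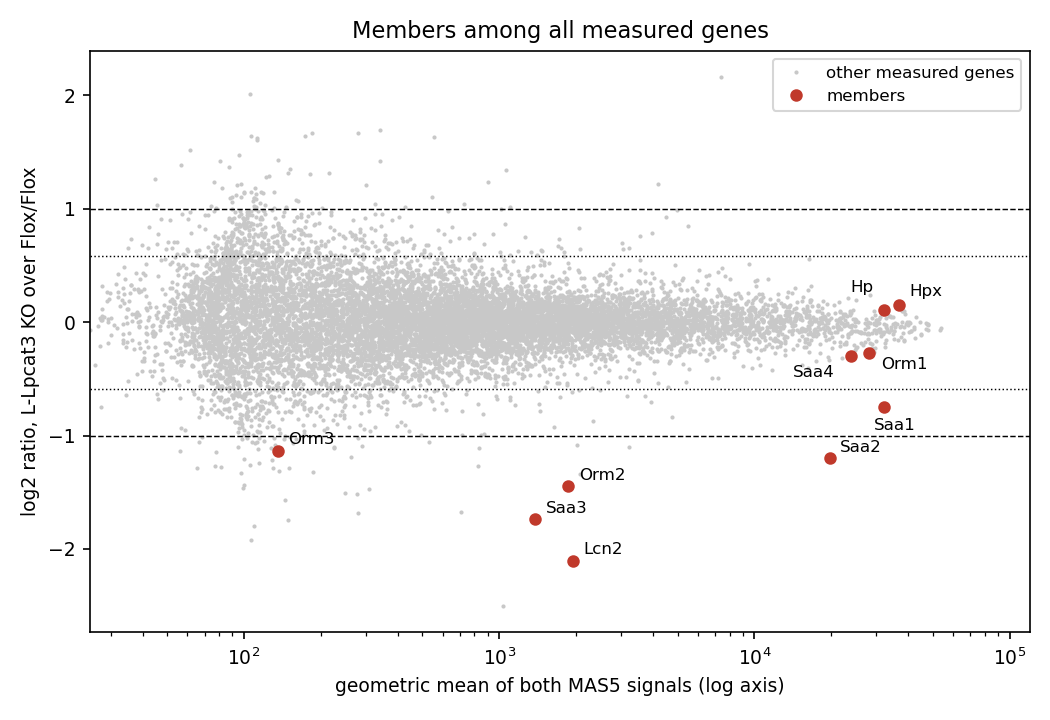
Log2 ratio of the knockout to the control pool (y axis) by geometric mean MAS5 signal (x axis, log scale) for 12061 measured genes (grey), with the 10 acute-phase genes in red; dotted lines mark 1.5-fold and dashed lines 2-fold. Lcn2, Saa3 and Orm2 lie below the cloud of genes of like signal, Saa2 and Saa1 lie below the cloud at the bright end, and Orm3 lies among dim genes with wide scatter.

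Other positive acute-phase genes lay mostly within 1.5-fold, in 27 of 28 measured cases. Of all measured genes, 92.9% lay within 1.5-fold, a share to read beside this count and those of the lists that follow. Dim genes lower this share. Of the 4274 genes from the floor to 386, 285 were at least 1.5-fold lower and 378 higher. Of the 3172 between 1000 and 5000, 23 were lower and 27 higher. Of the 901 between 5000 and 20000, 1 was lower and 2 higher. Bright genes of any kind thus lay mostly within 1.5-fold. A ratio below 0 was found for 26 of the 28, with a median log2 ratio of -0.12. Some of them are very bright, and of all 194 genes above a signal of 20000, 71.6% were below 0, against 49.3% of all measured genes. The others lie in dimmer bands of signal, where this share ran from 47.8% to 50.7%. Only Steap4, a metalloreductase induced in inflammation, was at least 1.5-fold lower. Its signals were 6345 in the Flox/Flox pool and 3548 in the L-Lpcat3 KO pool (-0.84). Its other probe set gave 494 and 247. Some genes within 1.5-fold were also low for their signal. Serpina3n (-0.49), Fgl1 (-0.33) and Apcs (-0.26) lay below the 5th percentile of genes between 5000 and 20000, -0.24. Lbp (-0.30) lay just below that of genes between 1000 and 5000, -0.29. Lrg1 (-0.31) and C9 (-0.23) lay below that of genes above 20000, -0.22. They were named after their values were seen. The brightest genes of the list were the antitrypsin gene Serpina1b (48239 and 47702, log2 ratio -0.02) and the fibrinogen gene Fgb (44851 and 40801, -0.14). C-reactive protein, which is a minor acute-phase protein in mice, had signals of 17606 and 15813 for Crp (-0.15), and serum amyloid P, the major pentraxin of mice, had 10470 and 8766 for Apcs (-0.26). These pentraxin genes were named after their values were seen.

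Negative acute-phase genes, whose liver output falls in inflammation, lay mostly close to 0. All 13 measured genes lay within 1.5-fold, 7 below 0 and 6 above, with a median of -0.03. The brightest were Apoa1, the main apolipoprotein of high-density lipoprotein (54827 and 52987, -0.05), and the transthyretin gene Ttr (47937 and 46087, -0.06). The highest ratio of the list was 0.41, that of Serpina6, the corticosteroid-binding globulin gene (6678 and 8870), which was named after its value was seen. It lay above the 95th percentile of genes between 5000 and 20000, 0.22.

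**Figure D4:**
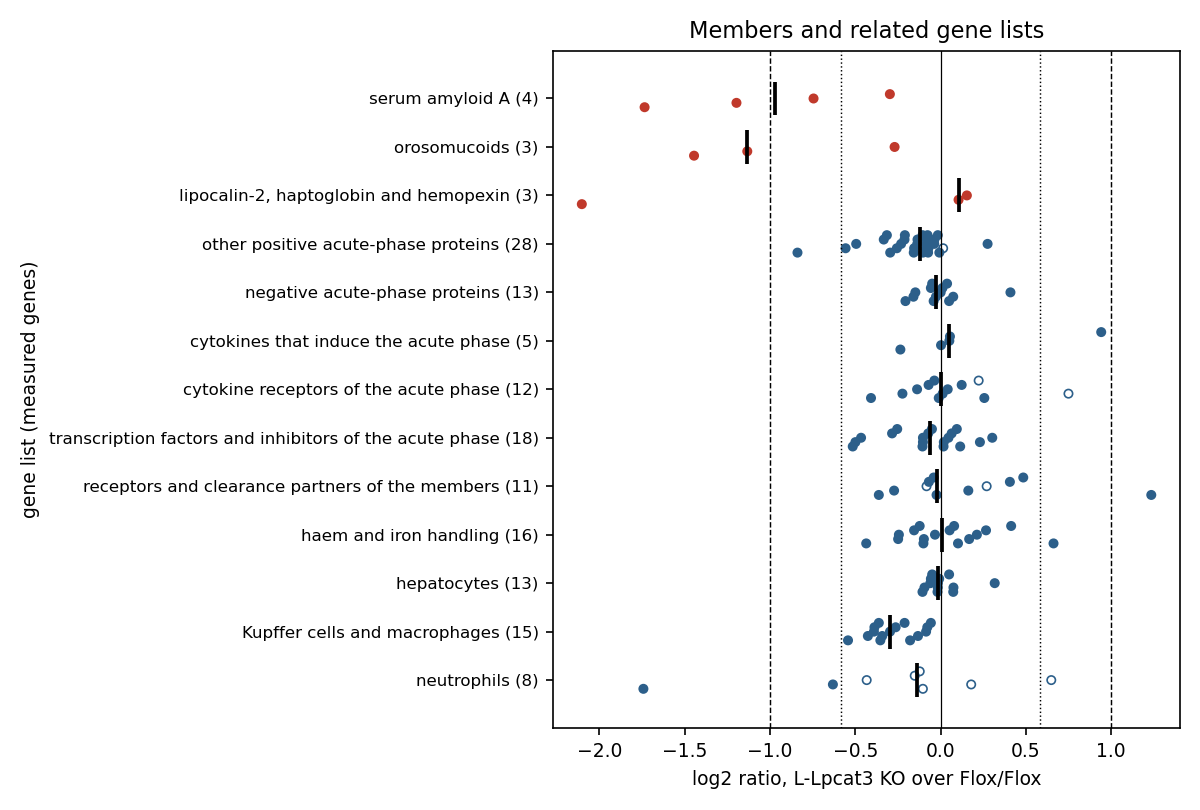
Log2 ratios of the knockout to the control pool (x axis) for the measured genes of 13 lists (y axis, number of genes in parentheses), with the acute-phase genes described here in red; open points have 1 array at the floor, black bars are medians, dotted lines mark 1.5-fold and dashed lines 2-fold. Medians are -0.97 for serum amyloid A genes, -1.13 for orosomucoids, -0.12 for other positive acute-phase genes and -0.03 for negative ones.

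Of 9 inducing cytokines on the array, 5 were measured. Il6, Tnf, Osm and Il11 were below the floor on both arrays, at signals between 15.3 and 43.7 in Flox/Flox and between 4.62 and 13.9 in L-Lpcat3 KO, where values have no reliable order. Of the 5 measured ligands, Il1b was higher, with 77.4 in Flox/Flox, next to the floor, and 149 in L-Lpcat3 KO (log2 ratio 0.94, 1.92-fold). The brightest ligands were the cardiotrophin gene Ctf1 (640 and 665) and Clcf1 (107 and 111). No ligand of the list was at least 1.5-fold lower.

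Receptors and their adaptor were balanced, with 6 of 12 measured genes below 0 and a median of 0.00. The brightest, the LIF receptor gene Lifr, had 11231 in the Flox/Flox pool and 8467 in the L-Lpcat3 KO pool (log2 ratio -0.41). This ratio lay below the 5th percentile of genes between 5000 and 20000, -0.24. The other probe sets of Lifr gave -0.68 and -0.09. The co-receptor gene Il1rap of IL-1 had 8586 and 9355 (0.12), with other probe sets from -0.28 to 0.24. Il22ra1, part of the IL-22 receptor, was the 1 gene past 1.5-fold. It was below the floor in Flox/Flox, at 63.1, and had 128 in L-Lpcat3 KO, at least 1.68-fold higher against that floor.

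All 18 measured transcription factors, kinases and inhibitors lay within 1.5-fold, 10 below 0, with a median of -0.06. The brightest were the hepatocyte factor Hnf4a (18389 and 17086, -0.11) and Cebpb, which drives acute-phase genes (17247 and 16056, -0.10). The lowest values of the list, named after they were seen, were those of Stat3 and Socs3. The signal of Stat3 was 4190 in the Flox/Flox pool and 2933 in the L-Lpcat3 KO pool (-0.51), and 2 other probe sets gave -0.21 and -0.31. A further one, close to the floor at 79.1 in the Flox/Flox pool, gave 1.01 in the opposite direction. By its brightest probe set Stat3 lay below the 5th percentile of genes between 1000 and 5000, -0.29. Nfkbiz (1030 and 746, -0.47) lay below that of genes between 386 and 1000, -0.41, but its other probe sets gave 0.53 and -0.03. Socs3, a feedback inhibitor that STAT3 induces, had 398 and 282 (-0.50), with 0.17 and -0.15 by its other probe sets.

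Genes whose products bind or clear the acute-phase proteins were also mostly within 1.5-fold, in 10 of 11 cases, with a median of -0.02. The exception was Cd36, a scavenger receptor gene, with 589 in the Flox/Flox pool and 1387 in the L-Lpcat3 KO pool (log2 ratio 1.23, and 1.29 by each of 2 other probe sets). The brightest were the asialoglycoprotein receptor gene Asgr1 (12111 and 11915, -0.02) and Lrp1, the hemopexin receptor gene (6129 and 5845, -0.07). Partners of the iron-binding proteins were named for this role after their values were seen. Cd163, the macrophage receptor for haptoglobin bound to haemoglobin, had 646 and 502 (-0.36). Slc22a17, described as a lipocalin-2 receptor, had 126 and 177 (0.48), and Hmox1, which breaks down haem, had 245 and 275 (0.16).

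On the list of haem and iron genes, 8 of 16 were below 0 and the median was 0.01. Id1, a target of BMP signalling in hepatocytes, was 1.58-fold higher (286 and 452), and the ferritin gene Fth1 (40809 and 36645, -0.16) and the haem synthesis gene Alas1 (21601 and 25033, 0.21) were the brightest. The other probe set of Alas1 gave -0.44, so its direction is uncertain.

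Several liver cell types can make these transcripts, and in whole liver RNA fewer cells of a type and less RNA per cell cannot be told apart. Of the markers of Kupffer cells and macrophages, all 15 had a ratio below 0, against 49.3% of all measured genes, but none reached 1.5-fold, the median log2 ratio was -0.30, and their summed signal was 17149 in the Flox/Flox pool and 14485 in the L-Lpcat3 KO pool. The brightest were Csf1r (3083 and 2921) and Mpeg1 (2969 and 2269), and the Kupffer cell gene Clec4f had 1441 and 1385. The lowest of the 15 log2 ratios was -0.54, that of Timd4, against -1.73 for Saa3 and -2.10 for Lcn2. The part of macrophages in these ratios was not tested.

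Neutrophil markers were dim on both arrays. Of 14 on the array, with a median of -0.14 over the 8 measured, 6 were below the floor in both pools. A ratio below 0 was found for 6 of the 8 measured, against 49.3% of all measured genes. S100a8, S100a9, Ngp, Elane, Mmp9 and Csf3r were below the floor on 1 array, so the size of their ratios depends on the floor. The summed signal of all 14 was 1046 in the Flox/Flox pool and 722 in the L-Lpcat3 KO pool. The granule protease gene Prtn3 had 271 and 81.1 (log2 ratio -1.74), Mpo had 124 and 80.1 (-0.63), and Csf3r, at 29.7 and 120, was at least 1.57-fold higher. S100a8 (84.8 and 58.8) and S100a9 (82.0 and 13.7), abundant in neutrophils, were just above the floor in Flox/Flox and below it in L-Lpcat3 KO. The granule genes Camp and Ltf were among the 6 below it on both arrays. The part of neutrophils in the Lcn2 ratio was not tested.

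The defining marker of adipocytes, Adipoq, was below the floor on both arrays (61.8 and 9.21), as was Lep, and the whole list summed to 792 and 811. Fabp4, which other cells also express, had 644 and 776 (0.27), but its other measured probe sets gave -0.16 and -0.61, so its direction is uncertain. Retn had 82.9 and 23.4. Hepatocyte markers were bright and close, with all 13 within 1.5-fold, a median of -0.02 and summed signals of 446178 and 443730. Endothelial markers had a median of 0.08 over 8 genes, 4 below 0 and 4 above, with Clec4g at 2595 and 3038 and Stab2 at 891 and 1033. Stellate cell markers had a median of -0.16 over 6 genes, with Col3a1 at 1758 and 1151, 1.53-fold lower, and Reln at 2318 and 2368. Of the markers of bile duct cells and of T, B and NK cells, 3 each were measured, with medians of 0.40 and 0.17 and no signal above 288. They included Sox9 (162 and 77.6) and Epcam (58.4 and 128) for bile ducts, and Ighm (197 and 288) and Cd8a (155 and 123) for lymphocytes.

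The ratios of the 10 genes changed little across the settings tried, as the plot of ratios under each setting shows. The direction of each gene was the same in all 98 values from 10 other settings. Many of these values could not differ. Moving the floor leaves the ratio of a gene above it on both arrays unchanged. Averaging over probe sets leaves a gene with 1 probe set unchanged. Lcn2 ranged from -2.11 to -2.02, Saa3 from -1.74 to -1.64 and Orm2 from -1.45 to -1.39. Orm3, near the floor, ranged from -1.18 to -0.72, the latter with a pseudocount added to every signal in place of the floor. Saa2 ranged from -1.20 to -0.74, the latter with probe sets named by accession.

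**Figure D5:**
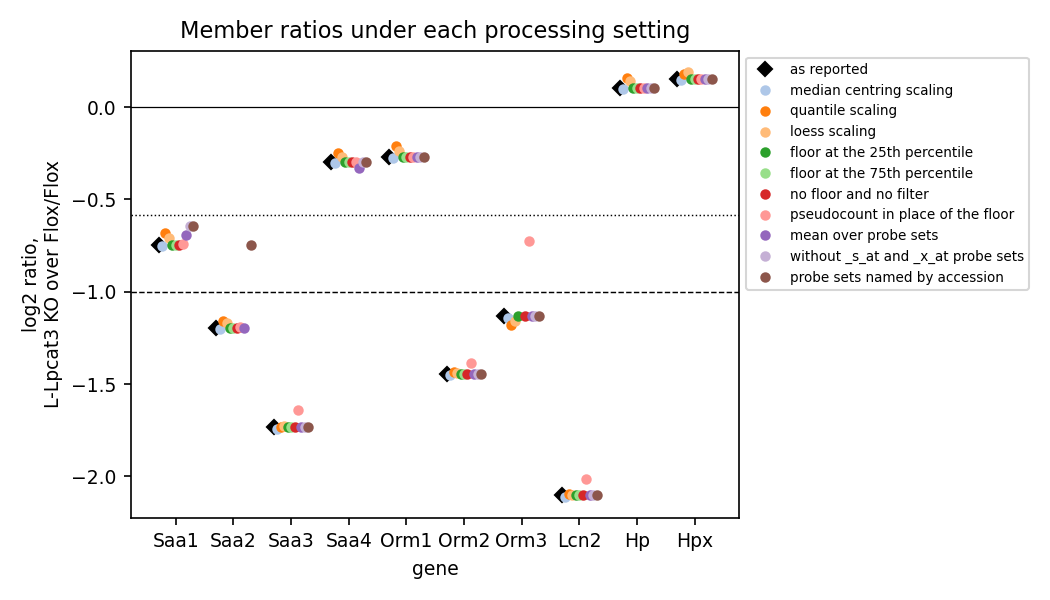
Log2 ratio of the knockout to the control pool (y axis) of each of the 10 genes (x axis) as reported (black diamonds) and under 10 other settings (coloured points); the dotted line marks 1.5-fold and the dashed line 2-fold lower. No point crosses 0, and the points farthest from the reported value are those of Saa2 at -0.74 and Orm3 at -0.72.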

How the data were processed

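The data are 2 Affymetrix Mouse Genome arrays, 1 per genotype, each of RNA pooled from 5 livers; precision is limited by this number of arrays. The authors deposited an intensity for each probe set on each array, a MAS5 signal by the submitters' processing notes, and the methods name GeneSpring GX; versions and build are not given in the sources used here. For each array, the mean without the 2% at either end was 500.0, so the authors had scaled both arrays to a common level. Of 45101 probe sets, 64 were controls, 34945 had 1 gene, 932 listed several and 9160 were unnamed here. Symbols were updated by gene ID to RefSeq (GRCm38.p6).

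Signals below the median of both arrays (76.4) were raised to it, log2 was taken with no further scaling, and the brightest probe set stood for each gene. Where 1 array lay below this floor, folds are printed with "at least" and hold for this floor alone. With 1 array per group no test was run. The acute-phase genes, the gene lists and their order were chosen with earlier results of these data known. Named are all 10 genes, Lpcat3, and from each list up to 4 genes past 1.5-fold and the 2 brightest; any other gene was named for its role or its place in an order after its values were seen. Likeness of pattern cannot be measured over 2 arrays. Promoters were aligned globally with Biopython 1.88. Scripts were tested on simulated data. Alternatives changed the scaling, the floor and the gene summary, and naming by accession was added after seeing the data. Python 3.11.15, numpy 2.4.6, pandas 2.3.3 and statsmodels 0.14.6 were used.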

Additional observations from a re-analysis of the deposited data

How the results depend on the processing

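Of 534 values under alternatives, 483 stayed close to the value reported and 51 moved, with no called value changing sign. A ratio of a single gene counted as moved past 1.5-fold, a list median past 0.1 and a count past 1.5 times. Some values could not move, such as the ratio of a gene above the floor on both arrays when only the floor changed. The median log2 ratio of the acute-phase genes described here was -0.74 for a floor set to the 75th percentile and -0.73 with a pseudocount, against -0.94 as reported. It was -0.64 once _s_at and _x_at probe sets were dropped, which leaves out Saa2, and -0.69 with probe sets named by accession, an alternative chosen after seeing the data. Between 5 and 6 of the genes were at least 1.5-fold lower and between 4 and 5 at least 2-fold lower over all alternatives.

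For the other positive acute-phase genes, 2 were at least 1.5-fold lower after quantile scaling, and 2 with neither floor nor filter, against 1. Of the inducing cytokines, none was 1.5-fold lower as reported, 1 was when the 25th percentile served as floor and 3 were with no floor, where their median was -0.24. With the floor at the 75th percentile or a pseudocount, 0 inducing cytokines, 0 cytokine receptors and 0 haem and iron genes were at least 1.5-fold higher, against 1 each. Over all alternatives the neutrophil median ran from -0.46 to -0.12 and the adipocyte median from -1.49 to 0.27. Over all genes, 379 were at least 1.5-fold lower as reported, 59 with the floor at the 75th percentile, 1381 at the 25th and 2356 with no floor or filter, while the 3 other scalings gave 388 to 413. At least 2-fold lower were 62 as reported, 39 with a pseudocount, 11 and 581 for floors set to the 75th and 25th percentiles and 1481 with no floor or filter. No probe set listed several of the acute-phase genes, so counting such probe sets for each gene gave no value. No paired analysis was possible because each group has 1 array. Signals near the floor and near the top of the range further limit what the ratios can show.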
